A study of Mus musculus with 8 samples.

Results

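Histone acetylation is set by 3 kinds of protein. Writers are acetyltransferases that place acetyl groups on histone lysines, erasers are the histone deacetylases (HDACs) and sirtuins that remove them, and readers bind the acetylated lysine through a bromodomain. Acetylated histones mark open, transcribed chromatin, and in the striatum deacetylases are known for shaping how neurons respond to dopamine and to psychostimulants. Brd2, the gene disrupted in these mice, encodes a bromodomain reader of the BET family and is not among the genes described here. The gene set held 40 genes by name, 12 writers, 18 erasers and 10 readers outside the BET family, and every probe on the array that carried one of those names was taken. This gave 64 of 39429 probes (82 of 43020 spots), each a 60-base oligonucleotide with mm9 coordinates.

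The study measured striatal RNA of 4 heterozygous Brd2+/- and 4 wildtype adult male mice on 4 Agilent 2-colour arrays of 1 slide. The heterozygous mice carried 1 gene-trap allele of Brd2 and the wildtype mice none, both from matings of heterozygotes in the backcross generation numbered 7 onto the C57Bl/6j strain. An array carried 2 mice of 1 genotype, replicates 1 and 2 or replicates 3 and 4, with odd replicates in Cy3 and even replicates in Cy5. Genotype therefore differed only between arrays, 2 against 2, and mice of an array were not independent of its hybridisation. The position of the trap within Brd2, and so which probes it would affect, was not known here.

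The labels name the tissue as prefrontal cortex striatum in one field and as heart left atrium in another. Of 15 markers of striatal projection neurons, 15 were well above background in all 8 samples, against 1 of 10 markers of atrial muscle, of which 3 were so in no sample. The Ppp1r1b probe read 16.77 ± 0.28 log2 units in heterozygous and 16.30 ± 0.50 in wildtype mice (SD, n = 4 each), and the atrial Myl7 was not well above background in any sample. Cortical excitatory neuron markers were uneven between samples, with mean levels of 7.76 to 8.65 in heterozygous and 8.25 to 10.18 log2 units in wildtype mice, a median difference of -1.03 over 7 genes and 5 of 8 genes well above background in all 8 samples. Striatal projection neuron markers had differences above 0 for 9 of 12 tested genes and below 0 for 3, with a median of 0.40. Their mean levels were 13.35 to 13.67 in heterozygous and 12.39 to 13.58 log2 units in wildtype mice. Those of astrocytes were 10.63 to 11.21 in heterozygous and 10.06 to 11.45 in wildtype mice. Markers of choroid plexus (8.46 to 11.16 in heterozygous and 6.91 to 11.26 in wildtype mice) were also uneven. So were those of ependyma (9.11 to 9.29 in heterozygous and 7.83 to 10.47 in wildtype mice) and blood (11.89 to 13.10 in heterozygous and 11.70 to 14.99 in wildtype mice). Of 5 tested endothelial markers, 3 had differences above 0 and 2 below, with a median of 0.37. Among them Cldn5 had -1.07 (limma unadjusted p = 0.0073, adjusted p = 0.476), and the brightest, Ly6c1, had 0.37. The part of these marker levels in the results was not tested, and in a piece of tissue fewer cells of a type and less RNA per cell cannot be told apart. The Brd2 probe A_55_P1958678 read 11.83, 11.68, 11.75 and 11.70 in heterozygous mice, against 11.06, 10.78, 12.01 and 12.02 in wildtype mice. A second Brd2 probe, A_55_P1953545, read 7.75, 8.07, 8.04 and 8.16 in heterozygous mice, against 7.39, 7.31, 6.90 and 6.90 in wildtype mice. The first had overlapping groups and the second was higher in every heterozygous mouse, so the arrays gave no independent check of the genotype labels. Between 16398 and 24867 probes were well above background per sample, fewest in heterozygous replicate 3, and none was saturated.

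The probes that the results turn on are shown by 30 bases each, 5′ to 3′, in the sense of the transcript, because different probes of a gene gave different answers. The part in this of the stretch read and of the place of the spot on the array was not tested. Capitals mark AATAAA, the polyadenylation signal letters, found on the printed strand of 12 of the 64 probes (18.8%) and of 12.6% of all 39429 probes. All lie on the minus strand of mm9.
Kat7, A_55_P1957028, chr11:95135574-95135633: ctgtatctactcAATAAAgcatgttctctg
Kat2a, A_55_P1974412, chr11:100566069-100566128: atccctcggagggaacAATAAAgctttttt
Kat2a, A_55_P2049602, chr11:100566536-100566595: tcttctacttcaagctcaaagagggagggc
Kat5, A_55_P2017714, chr19:5603017-5603076: cttgcccccagaAATAAAttgtttatatag
Kat5, A_55_P1996329, chr19:5603418-5603477: attgactccaagtgtctgcacttcactccc
Hdac10, A_51_P502764, chr15:88953840-88953899: ataataacagtgattgccagtcgcttgaaa
Hdac10, A_55_P1971804, chr15:88954002-88954061: gagatccaggctctgatgtttctaaaagct
Hdac4, A_51_P417839, chr1:93829554-93829613: acttgggcagagttgctgaatcaagttgac
Sirt7, A_55_P2045697, chr11:120485809-120485868: aactggccggagctgtccgaagtgccaggc
Sirt7, A_55_P2045693, chr11:120480463-120480522: gtcccctgcagcttggtgtcactgacgctg
Sirt7, A_51_P352264, chr11:120479736-120479795: gtacaagtgttcactttatagaagcctttt
Brd1, A_55_P2031367, chr15:88518727-88518786: atgaatcatctgagccgggtccatggggag
For Kat2a and Kat5 the probe with AATAAA lies downstream of its partner, and for Sirt7 the first probe lies upstream of the other two. Over the tested probes of the set, the median difference between genotypes was 0.15 for the 10 with AATAAA and -0.014 for the 44 without it. Over all tested probes of the array the medians were -0.013 and -0.023, which nearly coincide.

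No writer, eraser or reader differed between heterozygous and wildtype striatum past the test. Of the 64 probes, 54 were tested, reading 37 of the 40 genes, after 3 dim probes and 7 probes with an outlier spot were set aside. None of the 54 had an adjusted p under 0.05 (limma, adjusted over all 18399 probes tested), and the lowest was 0.437. The same was true of the array as a whole, where 0% of probes passed. At an unadjusted p under 0.05 there were 5 of 54 (9.26%), 3 higher and 2 lower, against 8.05% of all probes tested, of which 3.83% were higher and 4.22% lower. The groups of 4 did not overlap for 8 probes (14.8%), 4 higher and 4 lower, against 17.0% of all probes, of which 7.86% were higher and 9.10% lower. Both shares lie near those of the array, so neither count sets the acetylation genes apart.

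As a set the genes did not lean to either side. The difference, heterozygous minus wildtype in log2 units throughout, was above 0 for 27 probes and below 0 for 27, with a median of 0.00050 over the set and -0.022 over all probes. Its median size was 0.228 for the set and 0.255 for all probes, and 7 of 54 probes (13.0%) were at least 1.5-fold apart against 16.2% of all. Writers had 10 probes above 0 and 6 below, with a median of 0.097. Erasers had 9 above and 16 below, with a median of -0.038. Readers had 8 above and 5 below, with a median of 0.13. The 95% intervals reached a median of 0.70 log2 units to each side of the difference, from 0.48 for the closest to 1.65 for the widest, and 52 of 54 extended to a difference of at least 1.5-fold (0.58 log2 units) in 1 direction or the other.

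**Figure D1:**
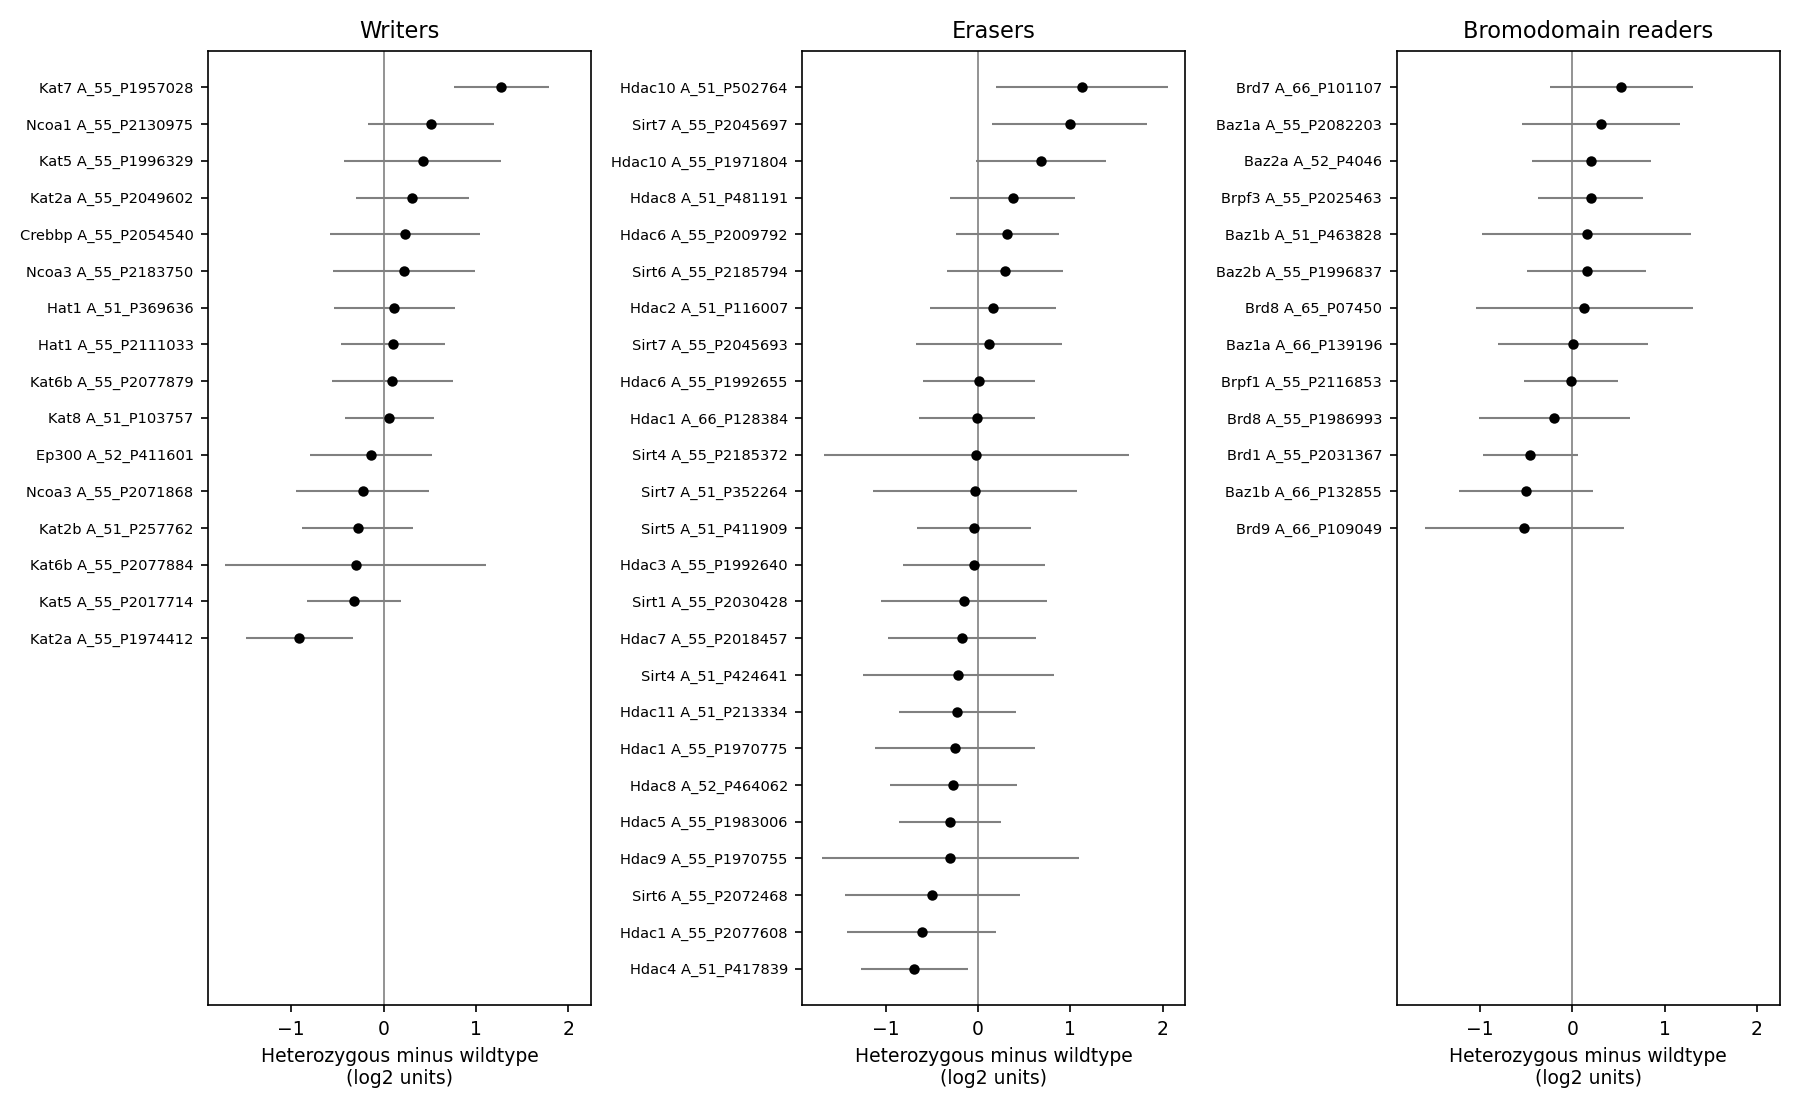
Difference between heterozygous and wildtype mice (log2 units, horizontal axis) for each of the 54 tested probes, in 3 panels by role and ordered by size, with bars for the 95% interval of the limma fit. Most intervals span 0, and the 5 that do not belong to Kat7, Hdac10, Sirt7, Hdac4 and Kat2a.

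Among the writers, the probe of Kat7 had the lowest p of the set. Kat7, also called HBO1, is a MYST-family acetyltransferase that acts with BRPF or JADE scaffold proteins. Its probe read 11.86, 12.02, 11.85 and 11.84 log2 units in heterozygous mice, against 10.52, 10.70, 10.62 and 10.64 in wildtype mice. All 4 heterozygous values lay above all 4 wildtype values, and the mice of each genotype were close together. The difference was 1.27 ± 0.23 (SE), 2.42-fold, with an unadjusted p of 0.000338 and an adjusted p of 0.437 in limma. An exact two-sided permutation test over samples gave 0.0286, the smallest value that 4 against 4 allows. Any probe whose groups do not overlap gives that value, so it adds nothing to the non-overlap. It also treats mice of an array as independent, which they were not. Over arrays the smallest possible value is 0.333.

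The Kat7 difference was not present in the signals as the scanner software had processed them. The spot lies in row 529, 3 rows from the edge of the array. The software fits a smooth surface over each array and divides the background-subtracted signal of a spot by it. That position factor at the Kat7 spot was 1.06, 1.14, 0.898 and 0.845 in heterozygous mice, against 0.478, 0.483, 0.330 and 0.382 in wildtype mice. The groups did not overlap in the factor either, and its log2 difference, 1.24, was close to that of the probe. With the processed signals, which hold this division, Kat7 differed by 0.083. Subtracting only the median deviation of spots within 10 rows and 10 columns, a setting chosen after seeing the data, left 0.98. Of the tested probes of the set, 0 had a larger factor difference than Kat7, and over the array 0.076% did.

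Kat2a, also called GCN5, is the acetyltransferase of the SAGA and ATAC coactivator complexes. Its probe A_55_P1974412 read 10.88, 10.68, 11.32 and 10.96 in heterozygous mice, against 12.02, 11.92, 11.96 and 11.60 in wildtype mice. Every heterozygous value lay below every wildtype value, with a difference of -0.91 ± 0.26 (SE, limma unadjusted p = 0.0059, adjusted p = 0.450). The other Kat2a probe, A_55_P2049602, averaged 8.53 ± 0.19 in heterozygous and 8.22 ± 0.15 in wildtype mice (SD, n = 4 each), a difference of 0.31, so the 2 probes of the gene pointed opposite ways. The log2 factor difference of their spots was -0.31 and 0.39, and with the processed signals the differences were -0.59 and 0.057.

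Kat5, also called Tip60, is the MYST-family acetyltransferase of the NuA4 complex, and its probes also parted. A_55_P2017714 read 13.07, 12.98, 12.97 and 13.06 in heterozygous mice, against 13.28, 13.32, 13.34 and 13.44 in wildtype mice. The groups did not overlap, but the gap was small: the difference was -0.32 ± 0.22 (SE, limma unadjusted p = 0.19), and -0.078 with the processed signals. The probe A_55_P1996329 had a difference of 0.42 ± 0.37 (SE) with overlapping groups. The value depended on the wildtype arrays: it became -0.21 once wildtype replicates 3 and 4 were left out and 1.05 once wildtype replicates 1 and 2 were left out.

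The other writers had intervals that span 0. Kat8 (MOF), which acetylates histone H4, was read by 10 spots of 1 probe. Without flagged spots, 9 to 10 of these were used in heterozygous and 7 to 9 in wildtype samples. Kat8 is the most closely bounded gene of the set, at 11.01 ± 0.14 in heterozygous and 10.95 ± 0.089 in wildtype mice (SD, n = 4 each). Its difference was 0.062 with a 95% interval of -0.42 to 0.55. The paralogous coactivators Crebbp (CBP) and Ep300 (p300) had differences of 0.23 and -0.13. Kat2b, the PCAF paralogue of Kat2a, had -0.28. Hat1, which acetylates newly made histone H4, had 0.11 and 0.098 on its 2 probes, the closest pair in the set. The log2 factor difference of the Hat1 spots was 0.78 and 1.03, and with the processed signals the Hat1 differences were -0.61 and -0.64. Kat6b had 0.095 and -0.30, and the nuclear receptor coactivators Ncoa1 and Ncoa3 had 0.52 on 1 tested probe of Ncoa1 and 0.22 and -0.23 on those of Ncoa3. Kat6a was read only by a probe with an outlier spot in 1 sample, with a difference of 0.030 when the spot was kept and 0.081 when that sample was dropped. The untested Ncoa1 probes, each with outlier spots in 2 samples, had 0.44 and -0.059 with these kept and 0.82 and 0.041 with those samples dropped. A second Crebbp probe, with outlier spots in 3 samples, likewise had 0.38 with them kept and -0.0063 with those samples dropped.

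**Figure D2:**
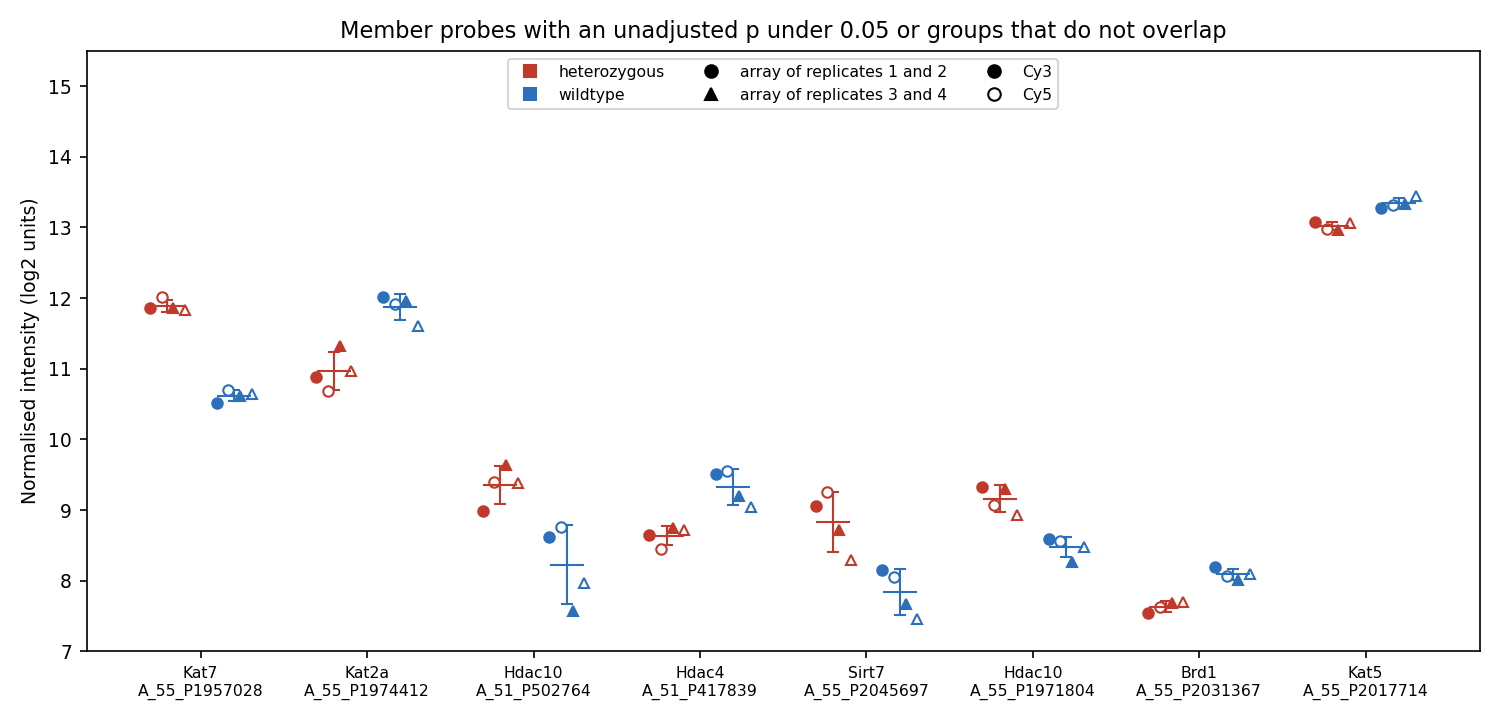
Normalised intensity (log2 units, vertical axis) in each of the 8 mice for the 8 probes with an unadjusted p under 0.05 or with groups that do not overlap, heterozygous left of wildtype. Bars are the mean and SD of 4 mice, the marker shape gives the array and its fill the dye. Levels of different probes cannot be compared.

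Among the erasers, both probes of Hdac10 were higher in every heterozygous than in every wildtype mouse. Hdac10 is a class IIb enzyme known as a polyamine deacetylase. The probe A_51_P502764 read 8.99, 9.40, 9.63 and 9.39 in heterozygous mice, against 8.61, 8.76, 7.57 and 7.97 in wildtype mice. The probe A_55_P1971804 read 9.33, 9.08, 9.30 and 8.94 in heterozygous mice, against 8.59, 8.57, 8.27 and 8.48 in wildtype mice. The differences were 1.13 ± 0.41 (SE, limma unadjusted p = 0.023) and 0.68 ± 0.31 (SE, limma unadjusted p = 0.056), with adjusted p of 0.546 and 0.636. For the first probe the wildtype arrays differed from each other by 0.92. Both spots lie where the position factor was also higher in heterozygous mice, by 0.81 and 0.42 in log2 units, and with the processed signals the differences were 0.61 and 0.46.

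The other class IIb enzyme, Hdac6, the deacetylase of tubulin, had differences of 0.32 and 0.0100 on probes that overlap in the genome. All 4 class IIb probes were thus above 0 and all 4 class IIa probes below it, but with the processed signals the Hdac6 probes had -0.0099 and -0.43 and Hdac7 had 0.17. With the local trend removed, the second Hdac6 probe had -0.16 and Hdac7 had 0.20. Class IIa deacetylases shuttle between nucleus and cytoplasm and repress targets of MEF2 factors. The Hdac4 probe read 8.64, 8.45, 8.74 and 8.72 in heterozygous mice, against 9.52, 9.56, 9.19 and 9.04 in wildtype mice. No heterozygous value reached the lowest wildtype value, and the difference was -0.69 ± 0.26 (SE, limma unadjusted p = 0.024, adjusted p = 0.549). The position factor of that spot hardly differed, by -0.030, and the difference was -0.77 with the processed signals. The remaining class IIa differences were -0.30 for Hdac5, which averaged 14.04 ± 0.20 in heterozygous and 14.34 ± 0.12 in wildtype mice (SD, n = 4 each), -0.30 for Hdac9 and -0.17 for Hdac7, each with overlapping groups.

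Sirt7, a nucleolar sirtuin, had the largest gap among its probes after Kat2a. A_55_P2045697 read 9.05, 9.26, 8.72 and 8.29 in heterozygous mice, against 8.16, 8.05, 7.67 and 7.46 in wildtype mice. The lowest heterozygous value lay just above the highest wildtype value, and within each genotype replicates 1 and 2 were higher than replicates 3 and 4. The difference was 0.99 ± 0.37 (SE, limma unadjusted p = 0.025, adjusted p = 0.552). The position factor ran the other way at that spot, by -0.10, and the difference was 1.503 with the processed signals. The downstream probes A_55_P2045693 and A_51_P352264 had 0.12 ± 0.35 and -0.035 ± 0.49 (SE), both with overlapping groups. A_51_P352264 is the brightest Sirt7 probe, at 11.54 ± 0.63 in heterozygous and 11.58 ± 0.28 in wildtype mice (SD, n = 4 each).

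The class I deacetylases had no probe with groups apart. Of these, Hdac1, Hdac2 and Hdac3 are the nuclear enzymes of the Sin3, NuRD, CoREST and NCoR complexes. The probes of Hdac1 had differences of -0.61, -0.25 and -0.0090. Hdac2 was read by 10 spots of 1 probe, of which 9 to 10 per sample were used. It averaged 7.17 ± 0.093 in heterozygous and 7.01 ± 0.49 in wildtype mice (SD, n = 4 each), a difference of 0.16. The probe was well above background in 3 heterozygous and 2 wildtype samples. Hdac3 had -0.043, and Hdac8 had 0.37 and -0.27 on its 2 probes. Hdac11, the class IV enzyme, had -0.22. Of the nuclear sirtuins, Sirt1 had -0.15 and Sirt6 had -0.49 and 0.29. Of the mitochondrial ones, Sirt4 had -0.21 and -0.016, and Sirt5 had -0.038. Sirt2, abundant in myelin, and Sirt3 were read only by probes with outlier spots, with differences of -0.58 and -0.081 when those were kept and -0.68 and -0.17 when those samples were dropped.

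Among the readers, Brd1 alone had groups that did not overlap. Brd1, also called BRPF2, is a scaffold of the acetyltransferase complexes of Kat7 and Kat6a. Its probe A_55_P2031367 read 7.54, 7.62, 7.69 and 7.69 in heterozygous mice, against 8.19, 8.07, 8.004 and 8.09 in wildtype mice. The values were low but tight in each genotype, and the probe was well above background in 3 heterozygous and 4 wildtype samples. The difference was -0.46 ± 0.23 (SE, limma unadjusted p = 0.077, adjusted p = 0.687), and -0.31 with the processed signals. The other Brd1 probe was well above background in 1 heterozygous and 2 wildtype samples and was not tested. The paralogues Brpf1 and Brpf3 had -0.011 and 0.20.

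Brd7 and Brd9, subunits of different SWI/SNF remodelling complexes, had differences of 0.53 and -0.52 on their tested probes, with overlapping groups for both. Brd8, a NuA4 subunit, had -0.19 and 0.13. Of the BAZ proteins, which pair with ISWI remodellers, Baz1a had 0.32 and 0.012, Baz1b had -0.50 and 0.16, Baz2a had 0.21 and Baz2b had 0.15. A second Brd7 probe, with outlier spots in 3 samples, had 0.20 with these kept, and 1 further probe each of Baz1a and Baz2b was too dim to test.

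Probes of the same gene often went opposite ways. Of 15 genes with more than 1 tested probe, 9 had probes on both sides of 0. The gap between probes reached 1.22 log2 units for Kat2a, 1.03 for Sirt7, 0.79 for Sirt6 and 0.74 for Kat5, and was 0.017 for Hat1.

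**Figure D3:**
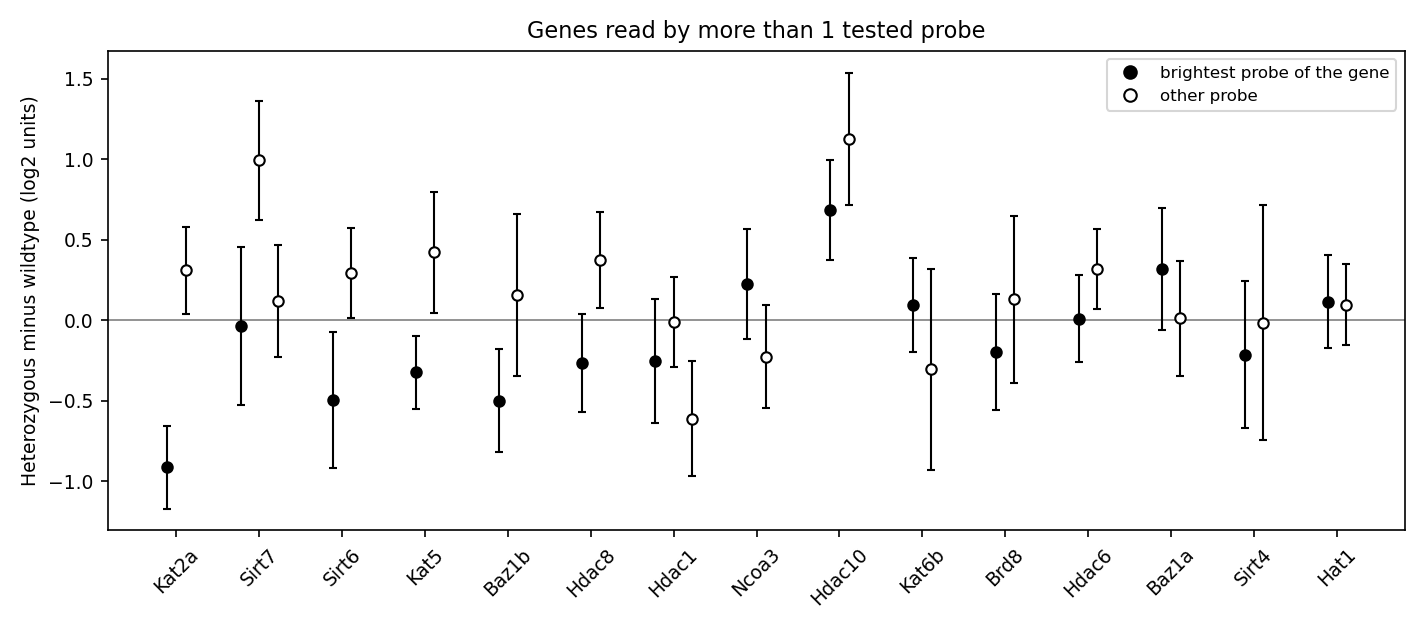
Difference between heterozygous and wildtype mice (log2 units, vertical axis) for each probe of the 15 genes with more than 1 tested probe, with bars for the SE of the limma fit and genes ordered by the gap between their probes. Filled points are the brightest probe of the gene. In 9 genes the probes lie on both sides of 0. Hdac10, Hdac6, Baz1a and Hat1 lie above 0 on both probes, and Hdac1 and Sirt4 lie below 0 on all of theirs.

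The arrays of a genotype differed from each other more than the mice on an array. Over the 54 probes the median size of the difference was 0.23 between genotypes, 0.33 between the 2 arrays of a genotype and 0.17 between the 2 mice on an array. A genotype difference averages 2 arrays on each side and an array gap sets 1 against 1, so without any effect of genotype the gap would be expected to be the larger, and the order of these medians says nothing about single genes.

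**Figure D4:**
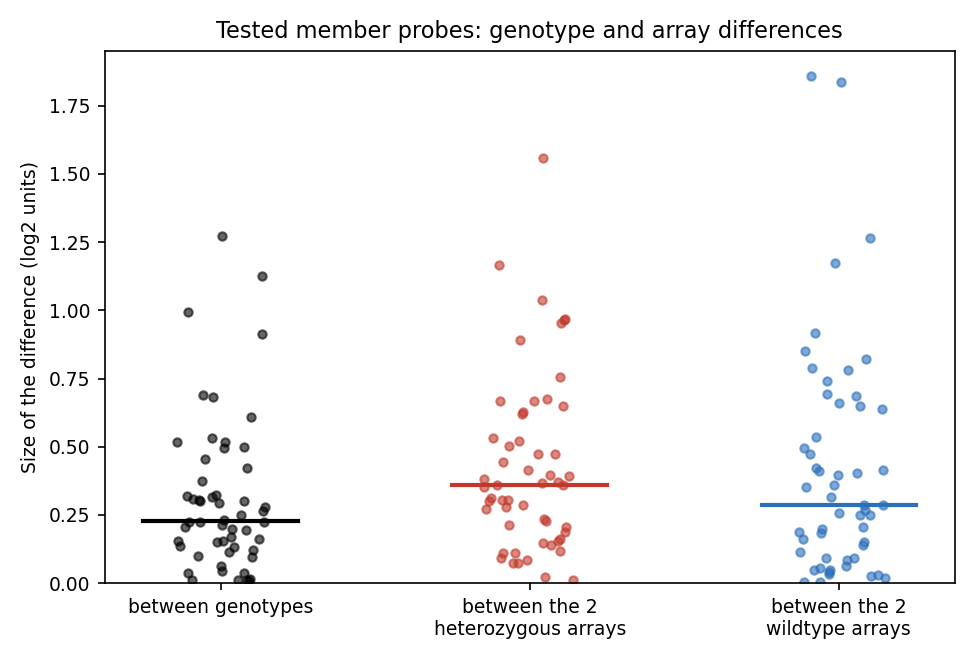
Size of the difference (log2 units, vertical axis) for the 54 tested probes between genotypes, between the 2 heterozygous arrays and between the 2 wildtype arrays, with bars at the medians and points spread sideways for legibility. The genotype differences average 2 arrays on each side, so the columns are not on an equal footing.

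Across the set, the differences moved with the position of the spots. The difference of a probe and the log2 difference of its position factor correlated at r = 0.64 over the 54 probes, as a description over spots that share 4 arrays, and at 0.57 over all 18399 tested probes. They had the same sign for 43 of 54 probes and for 69.8% of all probes. With the processed signals 35 of 54 probes kept the sign of their difference. In limma 2 then had an unadjusted p under 0.05, against 736 of all 18399. The processed signals hold the division by the position factor, so they are not a separate check. With the local trend removed, a setting chosen after seeing the data, 43 of 54 kept the sign. Under that setting 5 had an unadjusted p under 0.05 in limma, against 920 of all 18399.

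**Figure D5:**
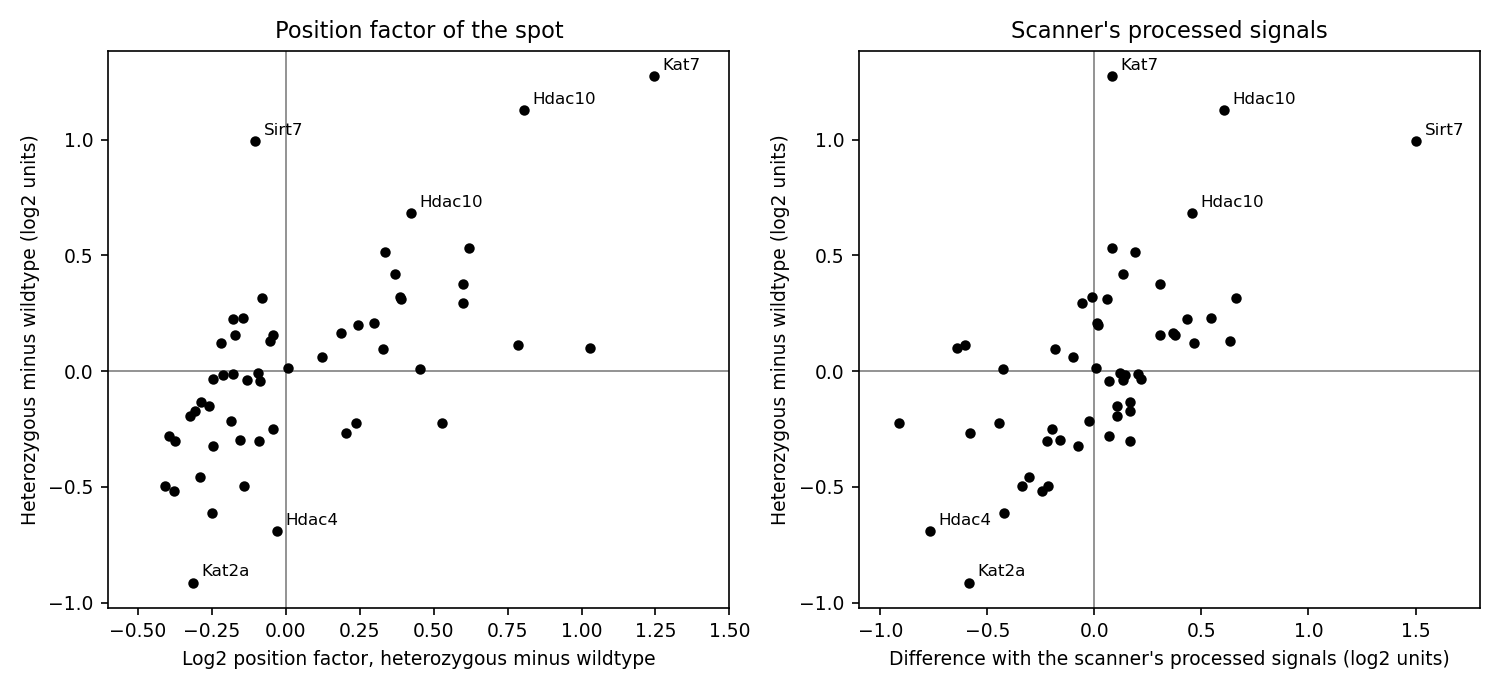
Difference between heterozygous and wildtype mice (log2 units, vertical axes) for the 54 tested probes, against the log2 difference of the scanner's position factor at the spot (left) and against the difference obtained with the scanner's processed signals (right). Kat7 and Hdac10 lie at the upper right of the left panel, Kat7 lies near 0 on the right panel, and Sirt7, Hdac4 and Kat2a keep their side on the right panel.

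The partners of these enzymes were read from lists of genes. Over 7 lists of complex subunits, further acetyltransferases and readers, and enzymes of acetyl-CoA and NAD supply, 108 of 130 genes were tested, each by its brightest probe. None passed the test, with a lowest adjusted p of 0.483. Differences were above 0 for 55 genes and below 0 for 53, and 7 (6.48%) had an unadjusted p under 0.05, 2 higher and 5 lower, against 8.12% of all 14980 genes read the same way, 3.69% higher and 4.43% lower. The 5 lower genes were Rcor1, Hcfc1, Sap30, Tada2a and Mcrs1 (limma unadjusted p = 0.017, 0.024, 0.025, 0.028 and 0.040).

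Of the deacetylase complex subunits, 16 of 32 were above 0 and 16 below. Rcor1, the CoREST scaffold, read 9.55, 9.67, 9.03 and 8.79 in heterozygous mice, against 10.02, 9.78, 10.84 and 10.69 in wildtype mice. These groups did not overlap, as for 17.0% of all probes tested, and the difference was -1.07 ± 0.37 (SE). The partner demethylase of Rcor1, Kdm1a, had 0.58. Sap30, a Sin3 subunit, had -0.77 and was well above background in 2 heterozygous and 4 wildtype samples. On the brightest probe, groups also did not overlap for Kdm1a, Sap30, Tada2a, Tada3, Dmap1, Mcrs1, Hcfc1, Meaf6, Jade1, Smarca4 and Dpf2. Of the SAGA and ATAC subunits, the partners of Kat2a, 8 of 17 were above 0 and 9 below, led by Tada2a at -0.76 and Tada3 at 0.60, with 0.18 on the other Tada3 probe. The third by p, Supt3, had -0.55.

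Of the NuA4, MSL and NSL subunits, the partners of Kat5 and Kat8, 9 of 18 were above 0 and 9 below. Hcfc1 had -0.61, Dmap1 had -0.47 and Mcrs1 had -0.56, with 0.43 on its other probe. Of the MOZ and HBO1 subunits, the partners of Kat7 and Brd1, 4 of 5 were above 0, with Ing4 at 0.71, Jade1 at 0.48 (0.11 on its other probe) and Meaf6 at -0.40.

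Of the further readers listed, 7 of 18 were above 0 and 11 below. Smarca4, the SWI/SNF ATPase, had 1.06 ± 0.34 (SE) on its brightest probe and 0.80 on the other, and Dpf2, a SWI/SNF subunit, had 0.90 ± 0.27 (SE). These 2 genes are the ones that were higher at an unadjusted p under 0.05, at 0.012 and 0.0088 in limma (adjusted p = 0.493 and 0.483). Atad2b had -0.74 on its brightest probe and 0.38 on the other. Of the other acetyltransferases 4 of 6 were above 0, with Esco1 at 0.38, Taf1 at 0.29 and Ncoa2 at -0.20. The other probes of Esco1 and Taf1 had the opposite sign, at -0.37 and -0.59. Of the genes of acetyl-CoA and NAD supply 7 of 12 were above 0, with Nadk at 0.62, Slc25a1, the citrate carrier, at 0.51 and Nmnat2 at -0.59.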

How the data were processed

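Spot and background intensity of each channel were read from the files the authors deposited, per the file headers written by Agilent Feature Extraction 11.0.1.1 on mm9 probe coordinates. Per the file headers, the deposited processed intensity had its background subtracted, a spatial trend divided out and the dyes balanced. The deposited position factor is a signal per spot, per the file headers. Across spots, log2 processed signals correlated with log2 background-subtracted signals at 0.961 to 0.988 per sample, and at 0.9987 to 0.9997 after division by that factor. The deposited value table holds a linear ratio of background-subtracted median signal to the column median, found from the values, and was used as an alternative after taking log2. The RNA was amplified and labelled by a T7 kit, per the labels' protocols.

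Mean spot signals were corrected with normexp (offset 50), normalised by loess within and Aquantile between arrays in limma 3.58.1 (R 4.3.3), and the own-channel log2 value of each mouse was used. Spots of a probe were averaged. Probes were tested if not control, with a spot free of outlier flags in every sample and well above background in at least 4 of 8 samples. The model held genotype and dye with array as a random block (correlation 0.810), eBayes and Benjamini-Hochberg adjustment at 0.05 over 18399 probes. Gene names came from the files, updated through RefSeq accessions for 27324 of 39429 probes, and 57 of the 64 probes had an accession that names the same gene. Probe sequences and coordinates came from the deposited files.

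All 40 genes are given. Values in every sample are given for probes of the set at an unadjusted p under 0.05 or with groups that do not overlap. Other tested probes of those genes are given by their differences. Up to 3 genes by lowest p are named per partner list. The genes, lists and rules were chosen with earlier results of these data known. The alternatives were other background corrections, normalisations, filters, models and units of replication, and leaving out each mouse and array. The replicates are separate mice, and the spread behind each p-value is that of mice and arrays jointly. The number of arrays limits the precision.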

Additional observations from a re-analysis of the deposited data

Results flagged for a closer look

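For each tested probe and genotype, the most extreme of the 4 mice was set against the others by the ratio of its gap to the range (Dixon's test). Of 108 such groups 4 exceeded the 95% critical value. Chance marks about 1 in 20 groups of independent values, a rate that need not hold for mice in pairs on shared arrays. Kat7 in heterozygous replicate 2 read 12.02, above 11.84 to 11.86 in the other heterozygous mice. Hdac8 (A_51_P481191) in wildtype replicate 3 read 7.19, above 6.66 to 6.71 in the other wildtype mice. Sirt6 (A_55_P2185794) in heterozygous replicate 1 read 7.51, below 7.96 to 7.997 in the other heterozygous mice. Hdac3 in heterozygous replicate 1 read 9.66, above 9.05 to 9.13 in the other heterozygous mice.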

How the results depend on the processing

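Over 28 alternatives, no probe of the gene set passed the test except without the array block, which treats mice of an array as independent: 2 then did (Kat7, adjusted p = 0.020, and Kat2a, 0.032), 12 had an unadjusted p under 0.05 and 539 probes passed over the whole table. Leaving out a mouse gave 0 to 1 probes past the test over the whole table, and leaving out an array gave 0 (heterozygous replicates 1 and 2), 5 (heterozygous 3 and 4), 19 (wildtype 1 and 2) and 13 (wildtype 3 and 4), where 1 array was left in that genotype. The authors' deposited value table gave 1. At an unadjusted p under 0.05 the set had 5 of 54 as reported, against 1481 of all 18399 probes tested. Without the array block its 12 stood against 3876. It had 2 with the processed signals, against 736, and 1 without a step between arrays, against 322. These 3 shifts were thus shared by the whole array. The set had 4 to 7 when a mouse or an array was left out, against 1068 to 2865 of all. Without the filter on dim probes it had 8 of 57, against 2860 of 35440. With 1 probe per gene it had 3 of 37, against 1193 of 14980. It had 6 with the separate-channel model and without the dye covariate, against 1941 and 1642. The median difference became 0.070 with the processed signals and 0.14 when heterozygous replicates 3 and 4 were left out. Some single probes changed sign. Kat2a A_55_P2049602 had -0.026 with the local trend removed, a setting added after seeing the data, and Kat5 A_55_P1996329 had -0.21 when wildtype replicates 3 and 4 were left out and 1.05 when wildtype replicates 1 and 2 were. Sirt7 A_55_P2045693 had -0.19 when heterozygous replicates 3 and 4, and -0.056 when wildtype replicates 1 and 2, were left out. Sirt7 A_51_P352264 had 0.22 with the processed signals, 0.073 with the local trend removed, -0.19 to 0.18 when a mouse was left out, 0.45 without heterozygous replicates 3 and 4 and 0.20 without wildtype replicates 3 and 4. The cause was not tested. With the replicate number as a block, 0 probes passed. The set then had 5 at an unadjusted p under 0.05, against 2097 of all 18399. The labels do not say what a number shares: same-numbered mice correlated at 0.040, 0.26, 0.16 and 0.12 in their deviations, and heterozygous replicates 1 and 3 correlated best with another number.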
